A study of Mus musculus with 12 samples.

Results

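The response of wild-type MEFs (mouse embryonic fibroblasts, cells that make connective tissue) to 120 minutes of growth hormone was read as the difference between the treated arrays WT-gh1 and WT-gh2 and the untreated arrays WT1 and WT2. These are 4 of the 12 Affymetrix expression arrays of the series. All cells were C57BL/6 MEFs, in 6 groups of 2 arrays that the series' design calls biological duplicates. Wild-type cells (WT), Stat5-null cells (KO) and Stat5-null cells into which a retroviral vector containing STAT5A had been introduced (S5) were compared without and with growth hormone, the latter for 120 minutes. The labels name no vehicle for the untreated groups and no Stat5-null cells with an empty vector. Genotype cannot be told apart from cell preparation, since no cells were shared between genotypes. Values are deposited log2 expression values of 18194 genes, each represented by its brightest probe set on average, and changes are log2 differences from limma's test with adjusted p below 0.05.

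Growth hormone binds a receptor that activates the kinase JAK2, which phosphorylates the transcription factors STAT5A and STAT5B. Among their best known targets are the receptor inhibitors Socs2 and Cish, and the repressor gene Bcl6 is often lowered by them. NF-kB is another family of transcription factors, held in the cytoplasm by IkB inhibitors until receptors for microbes or cytokines release it, and it drives chemokine, cytokine and survival genes as well as its own inhibitors. Interferon response genes are the antiviral and antigen presentation genes that interferons induce.

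Array medians over all probe sets lay between 2.86 and 3.02, and duplicates correlated with r between 0.9889 and 0.9956 over 9921 genes (genes are not independent replicates). The 10 fibroblast markers were all read, at log2 4 or more, on each WT array, with means from 12.62 to 12.82. The 17 macrophage and monocyte markers were also present on WT arrays, with means of 7.87 and 9.55 on the untreated and 9.55 and 9.53 on the treated arrays, and 13, 15, 16 and 15 of them read. Their summed log2 levels were 133.9, 162.4, 162.4 and 162.0, against 61.2 to 64.5 with 5 markers read on KO arrays and 49.8 to 52.1 with 3 read on S5 arrays. Untreated array 1 thus stood below the other WT arrays in this list, and untreated array 2 at the level of the treated ones. None of the short marker lists of neutrophils and mast cells (7 genes measured), of T, NK and B cells (6), of epithelium (4) or of erythroid cells (2) had a gene read on a WT array, while 2 of 10 genes of a longer epithelial list were read in WT. The 3′ minus 5′ difference of the Gapdh control probe sets was 1.22 and 1.04 untreated and 0.93 and 0.89 treated, and that of Actb 3.13 and 3.0 against 2.83 and 2.55. The part of these differences in the results below was not tested, apart from the counts given without single arrays. In such bulk samples, fewer cells of a type and less RNA per cell cannot be told apart.

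Growth hormone changed 1092 of the 18194 genes in WT MEFs, which is 6 percent. Of these, 557 rose (3.06 percent) and 535 fell (2.94 percent), and 294 rose (1.62 percent) and 171 fell (0.94 percent) at least 2-fold. The 2-fold counts use unadjusted log2 changes, also of values below 4, so some lower-bound folds stated later are under 2. In all 1092 changed genes both treated arrays lay on the same side of both untreated ones. This also held for 10871 of all 18194 genes tested, so such separation, where stated later, adds little to a call. A gene is called read elsewhere where at least 1 of the 8 KO and S5 arrays was at 4 or more, and WT only where all 8 were below 4 and a WT array was not. Of all genes tested, 11383 were read elsewhere and 452 in WT only. Among genes that rose at least 2-fold, 194 were read elsewhere, 94 (32 percent) in WT only and 6 on no array. These are 1.7 percent of all genes read elsewhere and 20.8 percent of those read in WT only. Among genes that fell at least 2-fold, 126 were read elsewhere (1.11 percent of that class), 43 (25.1 percent of the falls, 9.51 percent of the class) in WT only and 2 on no array. At any fold, 3.89 percent of genes read elsewhere rose and 4.16 percent fell, against 22.1 and 11.3 percent of WT-only genes, a class that is read in WT by definition. A gene could enter this class through its treated or its untreated arrays alone, as 55 of the 94 rises and 22 of the 43 falls did. The larger shares of the WT-only class are thus partly built into the split and are no result about its genes. Smaller changes lay almost wholly with genes read elsewhere, which made up 249 of the 263 rises and 348 of the 364 falls under 2-fold.

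Of 29 measured receptors, kinases and dampers of growth hormone's own signal, 9 rose (31 percent) and 3 fell (10.3 percent). Socs2, which damps cytokine receptors, stood at 7.14 and 7.28 untreated and 11.44 and 11.42 treated, a change of 4.22 (SE 0.13, adjusted p = 2.7e-06). Both treated arrays lay above both untreated ones. Its change in KO MEFs was 0.67 (adjusted p = 0.104), and the WT response exceeded the KO response by 3.55 (adjusted p = 0.000104). Cish, a related inhibitor, stood at 4.84 and 5.17 untreated and 8.22 and 8.07 treated, a change of 3.14 (SE 0.16, adjusted p = 6.46e-05). The groups did not overlap. In S5 MEFs Cish changed by 5.75, more than in WT (WT minus S5 -2.61, adjusted p = 0.00143). Bcl6, a transcriptional repressor, stood at 12.56 and 12.64 untreated and 10.74 and 10.71 treated, a change of -1.88 (SE 0.10, adjusted p = 7.39e-05). Its 4 KO arrays lay between 12.16 and 12.37 with no change, so the WT response was 1.88 lower than the KO response (WT minus KO -1.88, adjusted p = 0.000965). Averaging all Bcl6 probe sets removed this WT call (adjusted p = 0.0826).

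The promoter of Cish is shown because 2 copies of the STAT consensus TTCNNNGAA lie side by side in it, just past the gene's start. The 30 bases lie at chr9:107296654-107296683 on the plus strand (RefSeq, GRCm38.p6), and the capitals mark the 2 matches.
Cish: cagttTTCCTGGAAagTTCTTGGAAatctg
The Bcl6 window is shown because Bcl6 fell while it holds the same consensus once, in capitals, between 109 and 118 bases before the start of 1 of its 2 listed promoters (chr16:23988922-23989010, minus strand).
Bcl6: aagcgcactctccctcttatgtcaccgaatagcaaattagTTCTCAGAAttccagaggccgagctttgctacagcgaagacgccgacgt

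Other regulators of the signal moved by smaller amounts. Irs1, the insulin receptor substrate, stood at 12.26 and 12.37 untreated and 11.41 and 11.52 treated, a change of -0.85 (SE 0.11, adjusted p = 0.00669), and it also fell in S5 MEFs by 0.49. Sh2b3, an adaptor that restrains JAK2, stood at 10.65 and 10.77 untreated and 11.38 and 11.43 treated, a change of 0.70, against -0.11 in S5 MEFs (difference 0.81, adjusted p = 0.0221). The phosphatases Ptpn1 and Ptpn2 rose by 0.70 and 0.56, and Ptpn1 rose in KO (0.92) and S5 MEFs (1.10) as well. Jak2, Stat5a and Stat5b rose by 0.42, 0.77 and 0.34, and on the probe sets tested both Stat5 genes lay below 3 on all KO and S5 arrays. Tyk2, a JAK family kinase, rose by 1.25, and Pias1 and Pias3, inhibitors of STAT proteins, fell by 0.31 and 0.35. Ghr, the receptor, stood between 13.90 and 13.98 on the 4 WT arrays (change -0.01, adjusted p = 0.911). A list of 26 known targets of STAT5 or growth hormone had 3 rises and 3 falls (11.5 percent each), and the median change of the 26 was -0.04, that of all genes. The risers were Socs2, Cish and the survival kinase Pim1, up by 1.01, and the fallers were Bcl6, the oxidase gene Nox4, at -0.71, and Spry1, an inhibitor of growth factor signalling, at -0.77. The calls of Tyk2, Pim1, Nox4, Spry1 and Pias1 were lost in each of the 4 fits that left out 1 WT array, and those of Ptpn1, Jak2 and Pias3 in some of them. Averaging the Ptpn2 probe sets removed that call (adjusted p = 0.394). The falls of the damper list numbered 1, 1, 1 and 2 when untreated array 1, untreated array 2, treated array 1 or treated array 2 was left out. A fit of only the 4 WT arrays called 4 rises and 1 fall in the damper list, and lost Irs1 (adjusted p = 0.0516), Sh2b3 (0.0558), Stat5a (0.0975), Stat5b (0.0877), Jak2 (0.0939) and Ptpn1 (0.0939). It also lost Pias1 (0.131) and Pias3 (0.201), so the 1 fall called there is none of Irs1, Pias1 and Pias3.

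**Figure D1:**
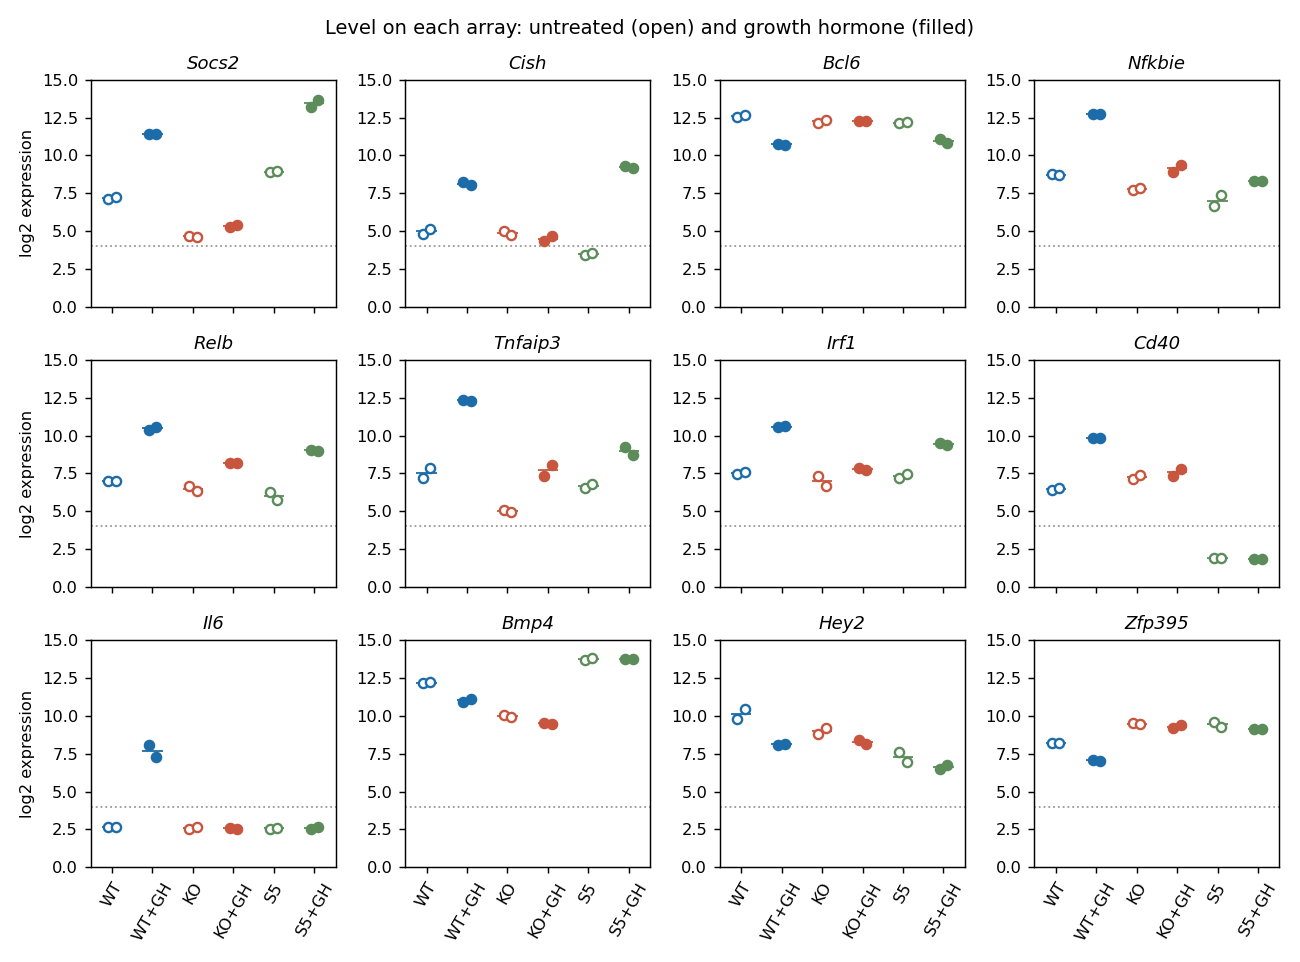
Log2 level (vertical axis) on each of the 12 arrays for 12 genes, with WT, KO and S5 along the horizontal axis, open circles for untreated and filled circles for growth hormone. Bars are means of 2 arrays and the dotted line is the bound of 4. In WT MEFs Socs2 went from 7.14 and 7.28 to 11.44 and 11.42 and Bcl6 from 12.56 and 12.64 to 10.74 and 10.71, while the Il6 circles of KO and S5 MEFs all lie below 4.

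The NF-kB system was the list with the largest share of members that rose among those shown in the chart of list shares. Of 27 measured subunits, inhibitors and brakes, 17 rose (63 percent) and none fell, with a median change of 1.43 over the 27, against -0.04 over all genes. Among the subunits, Relb stood at 7.0 and 7.0 untreated and 10.37 and 10.60 treated, a change of 3.49 (SE 0.18, adjusted p = 6.46e-05). Rel stood below the bound untreated, at 3.17 and 3.46, and at 6.08 and 6.21 treated, which is at least 4.42-fold higher (adjusted p = 5.79e-05). Rela, the most widely used subunit, went from 9.55 and 9.70 to 10.53 and 10.86, a change of 1.07 (SE 0.13, adjusted p = 0.00438). For each of these subunits both treated arrays lay above both untreated arrays. Nfkb2 rose by 1.86.

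The inhibitors that NF-kB itself induces rose with the subunits. Nfkbie, which encodes IkB epsilon, stood at 8.76 and 8.71 untreated and 12.73 on both treated arrays, a change of 3.99 (SE 0.22, adjusted p = 9.53e-05). Its change was 1.36 in KO (adjusted p = 0.07) and 1.28 in S5 MEFs (adjusted p = 0.0163), and the WT response was larger than either, by 2.63 (adjusted p = 0.0104) and 2.71 (adjusted p = 0.00524). Nfkbia, which encodes IkB alpha, went from 12.86 and 13.02 to 13.98 and 14.01, a change of 1.06 (SE 0.06, adjusted p = 0.000121). It also rose in KO (0.89) and S5 MEFs (0.78), and WT differed from them by 0.17 (adjusted p = 0.685) and 0.28 (adjusted p = 0.181). Nfkbib rose by 1.76 and differed from KO by 1.23 (adjusted p = 0.0291). Tnfaip3, the ubiquitin editing enzyme A20 that shuts the pathway off, stood at 7.20 and 7.85 untreated and 12.38 and 12.31 treated, a change of 4.82 (SE 0.30, adjusted p = 0.000191). Tnip1, which binds A20, went from 9.85 and 9.72 to 11.65 and 11.75, and its rise of 1.91 (SE 0.10, adjusted p = 8.45e-05) exceeded that in KO by 1.74 (adjusted p = 0.00178) and that in S5 by 1.43 (adjusted p = 0.00319). All these treated arrays stood clear of the untreated ones.

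Brakes and adaptors further down the pathway also rose. Birc3, a ubiquitin ligase of TNF receptors, rose by 2.49 and its response exceeded that in KO by 1.97 (adjusted p = 0.0166). Bcl3, a nuclear IkB protein, rose by 3.66 in WT, 3.98 in KO and 4.51 in S5 MEFs. Traf1, an adaptor of TNF receptors, was listed at 2.0 and 2.50 untreated and 9.22 and 9.27 treated, at least 37.9-fold higher, and lay below 2 on the 8 KO and S5 arrays. Of the same 27 genes 4 rose in KO and 13 in S5 MEFs, where 0.225 and 3.63 percent of all genes rose. Without untreated array 1, the array with the lower macrophage marker mean, 15 of the 27 rose in WT, and leaving out another WT array gave 14 to 16. The fit of the 4 WT arrays called 9, and there Rela (adjusted p = 0.0828), Nfkb2 (0.0526) and Nfkbib (0.0531) lost their calls while Relb, Rel, Nfkbie, Nfkbia, Tnfaip3, Tnip1, Birc3 and Bcl3 kept theirs. Of 22 mRNA decay regulators 2 rose (9.09 percent), with a median of 0.16 over the 22. They were Zc3h12a, an RNase that degrades cytokine mRNAs, by at least 5.85-fold, and Arid5a, which stabilises Il6 mRNA, by at least 1.43-fold.

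**Figure D2:**
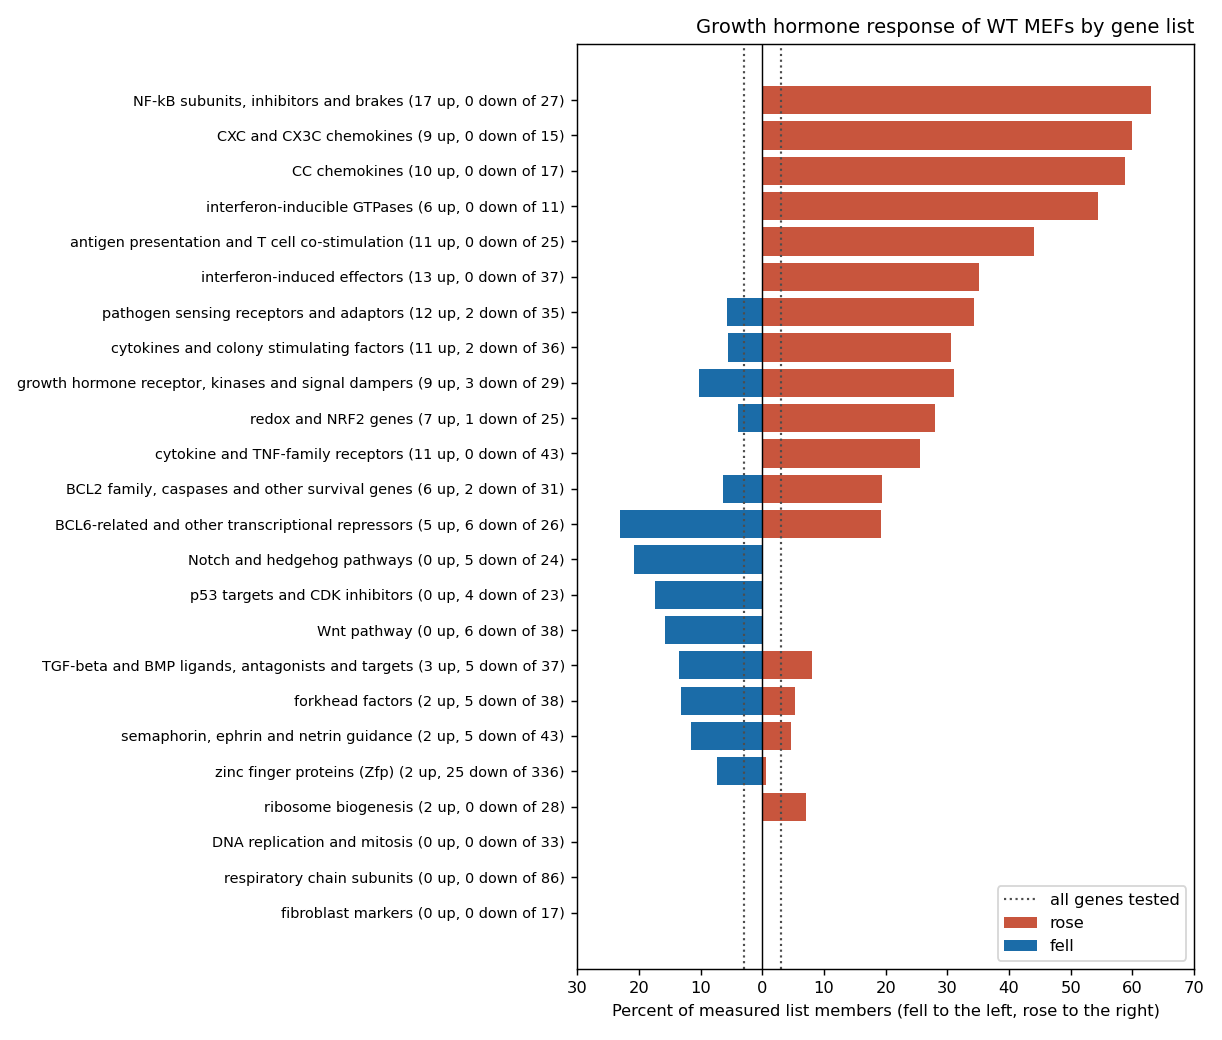
Percent of measured members of 24 gene lists that rose (bars to the right) or fell (bars to the left) in WT MEFs, with dotted lines at the 3.06 and 2.94 percent of all genes that rose and fell. All genes include those read on no array, and among genes read elsewhere 3.89 percent rose and 4.16 percent fell. NF-kB genes have 63 percent of members higher, CXC and CX3C chemokines 60 percent and CC chemokines 58.8 percent, and Zfp genes 7.44 percent lower.

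Chemokine genes, which encode secreted attractants of leukocytes, rose in both main families. Of 15 CXC and CX3C chemokines 9 rose (60 percent), with a median change of 3.21, and of 17 CC chemokines 10 rose (58.8 percent), with a median of 1.94, and none of either family fell. Among those read elsewhere, Cxcl10, which attracts T cells, stood at 8.91 and 8.90 untreated and 13.78 and 13.82 treated, a change of 4.89 (SE 0.14, adjusted p = 1.77e-06). It rose in every genotype, by 3.65 in KO and 6.11 in S5 MEFs, and WT differed from KO by 1.25 (adjusted p = 0.0328) and from S5 by -1.22 (adjusted p = 0.0196). Ccl2, which attracts monocytes, went from 12.71 and 12.53 to 14.57 and 14.56, a change of 1.94 (SE 0.15, adjusted p = 0.000511). Both WT groups were already high, and the rise in S5 MEFs was larger, at 6.18 (WT minus S5 -4.24, adjusted p = 7.4e-05). Cx3cl1, a membrane-bound chemokine, went from 6.69 and 6.36 to 10.10 and 9.90, and its rise of 3.47 (SE 0.20, adjusted p = 0.000107) exceeded that in KO by 2.09 (adjusted p = 0.017). The neutrophil attractants Cxcl1 and Cxcl5 rose by 3.90 and 3.21 in WT and by 4.44 and 4.11 in KO.

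Other chemokines were read in WT only. Ccl20, which attracts cells with the receptor CCR6, stood at 6.66 and 6.88 untreated and 12.32 and 12.41 treated, a 48.3-fold rise (adjusted p = 2.99e-08), and between 2.08 and 2.20 on the 8 KO and S5 arrays. Cxcl9 and Cxcl11, ligands of the same receptor as Cxcl10, lay between 2.39 and 2.65 untreated and between 6.87 and 7.10 treated, at least 7.75-fold and 8.12-fold higher. Ccl22 was at least 9.76-fold higher. These treated arrays were all above 6, and their untreated duplicates lay close together. Ccl3 was less even, at 8.22 and 10.13 untreated and 13.65 and 13.61 treated (adjusted p = 0.0034). Leaving out untreated array 1 left 9 and 10 rises in the 2 families. The fit of the 4 WT arrays called 5 in each, and lost Cxcl5 (adjusted p = 0.065) and Ccl3 (0.108). Ccl20 had an adjusted p of 0.00721 there.

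Among 36 cytokines and colony stimulating factors, 11 rose (30.6 percent) and 2 fell, and 7 of the 11 were read in WT only. Il6, a cytokine of the acute phase, stood at 2.65 and 2.68 untreated and 8.10 and 7.29 treated, at least 13-fold higher (SE of the log2 change 0.22, adjusted p = 3.13e-05). The untreated arrays did not rise above the bound, and the 8 KO and S5 arrays lay between 2.53 and 2.64. The SE and p of Il6 use a spread pooled over all 12 arrays, these 8 included. In the fit of the 4 WT arrays Il6 had an adjusted p of 0.0403. Il12b, a subunit of interleukins 12 and 23, went from 2.34 on both untreated arrays to 4.66 and 4.98, at least 1.77-fold higher. Of those read elsewhere, Csf1, the growth factor of macrophages, went from 12.24 and 12.35 to 13.60 and 13.66, a change of 1.33 (SE 0.10, adjusted p = 0.000475), against 1.29 in S5 MEFs (difference 0.04, adjusted p = 0.987) and 0.90 above its change in KO (adjusted p = 0.035). Lif, which signals through gp130, went from 8.20 and 7.46 to 11.04 and 10.95 and exceeded its KO response by 2.84 (adjusted p = 0.0114). Il15 moved in opposite directions, from 6.41 and 6.71 to 8.11 and 7.87 in WT (1.43, adjusted p = 0.00875) and by -1.12 in S5 MEFs (difference 2.55, adjusted p = 0.00469). The falls, of the alarmin Il33 by 2.24 and the lymphocyte factor Il7 by 0.57, were lost in some fits without 1 WT array, the list had 0, 1, 2 and 1 falls without untreated array 1, untreated array 2, treated array 1 or treated array 2, and Il7 had a change of 0.31 when its probe sets were averaged. In the fit of the 4 WT arrays, 7 members rose and none fell, with Lif (adjusted p = 0.0571) and Il15 (0.0647) among the lost calls.

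Receptors of such ligands also rose. Of 43 cytokine and TNF-family receptors 11 rose (25.6 percent) and none fell, and all 11 were read elsewhere. Cd40, a TNF-family receptor of antigen presenting cells and fibroblasts, stood at 6.44 and 6.52 untreated and 9.82 on both treated arrays, a change of 3.34 (SE 0.14, adjusted p = 2.52e-05). On the KO arrays it lay between 7.15 and 7.79 with a change of 0.29, so the responses differed by 3.06 (adjusted p = 0.000468). Fas, the death receptor, went from 9.84 and 9.76 to 12.13 and 12.23, and its rise of 2.38 (SE 0.11, adjusted p = 3.83e-05) stood against -0.12 in KO (difference 2.50, adjusted p = 0.000364) and 0.95 in S5 MEFs (difference 1.43, adjusted p = 0.00401). Il15ra, which presents interleukin 15, went from 4.11 and 4.17 to 8.01 and 7.65, a change of 3.69 (adjusted p = 1.27e-05), against 0.46 in KO. None of these treated arrays overlapped the untreated ones. Without untreated array 1, untreated array 2, treated array 1 or treated array 2 the list had 9, 8, 8 and 5 rises, and the fit of the 4 WT arrays called 3, which were Cd40, Fas and Il15ra. Of 13 chemokine receptors 2 fell, Cxcr4, the receptor of Cxcl12, from 6.75 and 8.40 to 2.77 and 3.15, and Ackr3, a scavenger of the same ligand, by 1.17. Ccrl2 rose at least 7.73-fold. Without untreated array 1 the falls of this list numbered 4. The 4-array fit lost Cxcr4 (adjusted p = 0.0918) and Ackr3 (0.0638).

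Of 35 pathogen sensing receptors and adaptors, 12 rose (34.3 percent) and 2 fell, and 6 of the 12 were read in WT only. Tlr2, the receptor of bacterial lipoproteins, stood at 6.56 and 7.98 untreated and 11.12 and 11.13 treated, a change of 3.85 (SE 0.41, adjusted p = 0.00247), with 0.28 in S5 MEFs (difference 3.57, adjusted p = 0.0215). Nod1, a cytosolic sensor of bacterial wall fragments, went from 8.75 and 8.53 to 10.07 and 10.41, a change of 1.60. Tlr4, the lipopolysaccharide receptor, went the other way, from 10 and 10.14 to 8.96 and 8.6, a change of -1.29 (SE 0.20, adjusted p = 0.0129). The untreated Tlr2 arrays stood apart by more than 1, while those of Nod1 and Tlr4 were close together. Tlr4 lost its call in some fits without 1 WT array, and the falls of the list numbered 3, 0, 1 and 1 in these fits, in the order used for the rises. The rises numbered 9, 16, 8 and 9 without untreated array 1, untreated array 2, treated array 1 or treated array 2, and 3 in the fit of the 4 WT arrays, where Tlr2 (adjusted p = 0.092), Nod1 (0.0628) and Tlr4 (0.075) lost their calls.

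Interferon response genes rose in part. Of 37 interferon-induced effectors 13 rose (35.1 percent), 7 of them read in WT only, of 11 interferon-inducible GTPases 6 rose (54.5 percent), and of 9 interferon regulatory factors 1 rose, Irf1. None of the 3 lists had a fall. Irf1, a transcription factor of interferon responses, stood at 7.45 and 7.58 untreated and 10.56 and 10.64 treated, a change of 3.09 (SE 0.20, adjusted p = 0.000214). It rose by 2.13 in S5 MEFs, and the WT response exceeded that in KO by 2.29 (adjusted p = 0.0117). Gbp7, a guanylate binding protein, went from 9.25 and 9.65 to 12.16 and 12, a change of 2.63 (SE 0.22, adjusted p = 0.000686), with 2.91 in S5 MEFs and a difference from KO of 1.93 (adjusted p = 0.0353). Ifi47, another GTPase, went from 7.0 and 7.34 to 10.03 and 9.63 and rose more in S5 than in WT (WT minus S5 -1.74, adjusted p = 0.019). The treated arrays of all 3 stood above the untreated ones. Slfn2, a Schlafen protein, was read in WT only, at 6.31 and 6.91 untreated and 10.21 and 10.14 treated. Parp14 rose by 3.33. Without untreated array 1, untreated array 2, treated array 1 or treated array 2 the GTPases had 3, 6, 3 and 3 rises and the effectors 9, 10, 11 and 10. The fit of the 4 WT arrays called 3 and 5, and Ifi47 stood at an adjusted p of 0.0501 there.

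Genes of antigen presentation and T cell co-stimulation rose in 11 of 25 cases (44 percent), with no fall and 5 read in WT only. Psmb10, a subunit of the immunoproteasome that cuts peptides for class I molecules, went from 10.06 and 9.87 to 11.25 and 11.39, a change of 1.35 (SE 0.12, adjusted p = 0.000942) that exceeded the KO response by 1.10 (adjusted p = 0.0303). Psmb8, another such subunit, was read in WT only, at 5.77 and 5.91 untreated and 7.62 and 8.09 treated. H2-K1, a class I heavy chain, went from 11.55 on both untreated arrays to 12.39 and 12.17, a change of 0.73 (adjusted p = 0.00669). All treated arrays were the higher ones. Cd74, the class II invariant chain, lay at 2.96 and 2.85 untreated and 7.17 and 6.48 treated, at least 7.07-fold higher. Without treated array 2 the list had 7 rises, and in the fit of the 4 WT arrays 5, with Psmb8 (adjusted p = 0.06) and H2-K1 (0.0774) lost.

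Outside these immune lists, genes of transcription and survival moved both ways. Of 31 immediate early factors 4 rose (12.9 percent) and 1 fell. Nr4a3, an orphan nuclear receptor, stood at 5.02 and 4.24 untreated and 9.2 and 9.05 treated, a change of 4.50 (SE 0.40, adjusted p = 0.00105), and also rose in KO, by 3.0. Its relative Nr4a1 went from 7.23 and 6.73 to 5.62 and 5.25, a change of -1.54 (adjusted p = 0.00879). The treated arrays were thus high for one receptor and low for the other. Cebpd, a factor of inflammation and fat cell formation, went from 11.13 and 10.98 to 12.62 and 12.56, and its rise of 1.54 (SE 0.10, adjusted p = 0.000214) stood against -0.17 in KO (difference 1.71, adjusted p = 0.00165) and -0.34 in S5 MEFs (difference 1.88, adjusted p = 0.000671). Nr4a1 lost its call in the fit of the 4 WT arrays (adjusted p = 0.103) and without treated array 2 (0.0529). The immediate early list had 2 rises in place of 4 without untreated array 2 or treated array 2.

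Of 31 survival genes 6 rose (19.4 percent) and 2 fell. Bid, a pro-apoptotic BCL2 relative, went from 9.79 and 9.88 to 11.42 and 11.57, a change of 1.66 (SE 0.11, adjusted p = 0.000214), 1.46 above its change in KO (adjusted p = 0.00593). Bmf, another pro-apoptotic member, went from 4.42 and 4.44 to below the bound, at 3.0 and 2.93, at least 1.35-fold lower (adjusted p = 0.000375). In S5 MEFs Bmf rose by 0.86, and the responses differed by -2.32 (adjusted p = 0.000306). Casp4, the caspase of the lipopolysaccharide response, went from 6.36 and 6.46 to 10.15 and 9.59, a change of 3.46 (adjusted p = 0.000939). All 3 genes had duplicates within 1 of each other. Of 21 MAP kinase phosphatases, Sprouty and Spred inhibitors 4 rose (19 percent), among them Dusp5, which acts on ERK, by 2.30, and Errfi1, an inhibitor of the EGF receptor, by 1.41, and these differed from KO by 2.83 (adjusted p = 0.0104) and 1.56 (adjusted p = 0.0394). The survival and phosphatase lists had 3 and 2 rises in the fit of the 4 WT arrays, and phosphatase rises numbered 2 without untreated array 2 or treated array 2. The falls of the survival list numbered 1 in each fit without 1 WT array.

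Metabolic and redox genes rose in small numbers. Of 25 redox and NRF2 genes 7 rose (28 percent), 3 of them read in WT only, and 1 fell. Of 15 genes of macrophage arginine, itaconate and biopterin metabolism 5 rose (33.3 percent), 1 of them read in WT only. Mt2, a metallothionein, stood at 10.76 and 10.52 untreated and 13.10 and 13.05 treated, a change of 2.43 (SE 0.25, adjusted p = 0.00211), and differed from KO by 2.25 (adjusted p = 0.0344). Slc7a2, which imports arginine, went from 8.90 and 8.76 to 10.96 and 10.72, a change of 2.01 (SE 0.16, adjusted p = 0.000636), against -0.09 in KO (difference 2.10, adjusted p = 0.0072) and 0.40 in S5 MEFs (difference 1.60, adjusted p = 0.0123). Pfkfb3, which speeds glycolysis, went from 9.63 on both untreated arrays to 10.37 on both treated ones, a change of 0.74 (adjusted p = 0.00363). In each of these genes the treated pair was the higher one. Of 30 glycolysis, glucose uptake and hypoxia genes 4 rose (13.3 percent) and 2 fell, with the glucose transporter Slc2a6 at least 5.17-fold higher and Slc2a3 lower by 0.91 (log2 change -0.91). Slc2a3 lost its call in the 4-array fit (adjusted p = 0.0794) and with a trended prior (0.0508) or the mean of probe sets (0.088). Ppp1r3c, which targets a phosphatase to glycogen, went from 8.27 and 8.79 to 4.98 and 5.93, and its change of -3.08 differed from that in KO by -2.87 (adjusted p = 0.0241), with 1 of the other 20 glycogen genes also lower (Ppp1r3d, -1.19). The 4-array fit lost Ppp1r3c (adjusted p = 0.0874) and called 1 rise in each of the redox and macrophage metabolism lists. Redox rises numbered 5 and 4 without treated array 1 or treated array 2, and macrophage metabolism rises 3 without either. Ppp1r3d lost its call in each fit without 1 WT array, which left 1 fall in the glycogen list.

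Growth factors of receptor tyrosine kinases had 5 rises (17.9 percent) and 3 falls among 28. Pdgfb, a chain of platelet-derived growth factor, stood at 2.47 and 2.63 untreated and 7.08 and 7.57 treated, at least 10-fold higher (adjusted p = 9.22e-05). In S5 MEFs it moved the other way, from 4.94 and 5.43 to 4.07 and 3.44 (change -1.43, adjusted p = 0.0197). Ereg, a ligand of the EGF receptor, went from 10.28 and 10.25 to 11.30 and 11.25. Fgf7, a fibroblast factor for epithelium, went from 11.54 and 11.39 to 12.79 and 12.61, a change of 1.24 (adjusted p = 0.000582), and rose by 0.79 in KO. The treated arrays were higher in all 3 genes in WT. Fgf7 stood at an adjusted p of 0.0507 in the fit of the 4 WT arrays, which called 3 rises and 1 fall. The rises numbered 3 without untreated array 2 or either treated array, and the falls 1, 2, 1 and 1 without untreated array 1, untreated array 2, treated array 1 or treated array 2.

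Genes of developmental signals and transcription factors were among those that fell. Of 24 Notch and hedgehog genes 5 fell (20.8 percent), of 38 Wnt genes 6 (15.8 percent), of 37 TGF-beta and BMP genes 5 (13.5 percent), with 3 rises, and of 38 forkhead factors 5 (13.2 percent), with 2 rises. Bmp4, a bone morphogenetic protein, stood at 12.17 and 12.20 untreated and 10.92 and 11.13 treated, a change of -1.16 (SE 0.08, adjusted p = 0.000308), which differed from KO by -0.67 (adjusted p = 0.0435) and from S5 by -1.14 (adjusted p = 0.00275). Fzd8, a Wnt receptor, went from 9.88 and 9.86 to 8.97 and 8.80, a change of -0.98 (SE 0.08, adjusted p = 0.000582), against -0.01 in KO (difference -0.97, adjusted p = 0.00819). Hey2, a repressor downstream of Notch, went from 9.81 and 10.44 to 8.10 and 8.11, a change of -2.01 (SE 0.28, adjusted p = 0.0083). The treated pair was lower in each. Foxc1, a forkhead factor of mesenchyme, fell by 1.02, Foxq1 fell at least 1.53-fold, and Foxs1 rose 5.36-fold.

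The counts of falls changed with the arrays in the fit. Without untreated array 1, untreated array 2, treated array 1 or treated array 2, the falls numbered 4, 3, 1 and 2 for Notch and hedgehog genes, 2, 2, 3 and 3 for Wnt genes, 1, 2, 3 and 3 for TGF-beta and BMP genes and 3, 4, 3 and 2 for forkhead factors. In the fit of the 4 WT arrays they numbered 0, 1, 2 and 0. The 3 rises of the TGF-beta and BMP list became 2, 0, 0 and 1 in the fits without 1 WT array and 0 in the fit of the 4 WT arrays, and the 2 of the forkhead list became 3, 2, 2 and 1, and 0. Bmp4 and Fzd8 kept their calls there, and Hey2 (adjusted p = 0.0758), Foxq1 (0.0629) and Foxs1 (0.058) lost theirs. Foxc1 lost its call in that fit (0.0571) and when its probe sets were averaged (0.0889). The medians over the same lists were -0.18, -0.16, -0.06 and -0.02.

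The zinc finger genes named Zfp were a large class with falls. Of 336 measured, 25 fell (7.44 percent) and 2 rose (0.595 percent), and the median change of the 336 was -0.19, or -0.22 over those read in WT, against -0.04 and -0.02 over all genes. Of the 25, all but Zfp979 were read elsewhere. These were 24 of 296 Zfp genes read elsewhere, where 4.16 percent of all genes of that class fell. Zfp genes encode zinc finger proteins, most of them DNA-binding factors of unassigned function. Zfp395 stood at 8.19 and 8.24 untreated and 7.09 and 7.01 treated, a change of -1.16 (SE 0.11, adjusted p = 0.00114), and differed from KO by -0.98 (adjusted p = 0.0313) and from S5 by -0.87 (adjusted p = 0.0264). Zfp760 went from 8.95 and 8.78 to 7.57 and 7.28, and Zfp647 from 9.12 and 9.14 to 8.53 and 8.33. The treated arrays of all 3 lay below the untreated. In KO MEFs no Zfp gene passed the threshold in either direction, where 0.308 percent of all genes did. The median change of Zfp genes in KO was -0.02, the same as that of all genes. In S5 MEFs 20 of the 336 fell and 3 rose, where 4.25 percent of all genes fell and 3.63 percent rose. The Zfp median in S5 was -0.05, against -0.02 over all genes. Without untreated array 1, untreated array 2, treated array 1 or treated array 2, 15, 10, 11 and 12 fell, and 7 in the fit of the 4 WT arrays. Treatment of scale did not turn the sign. Over genes read on all arrays the medians of the 4 WT arrays lay between 10.47 and 10.496, so centring could hardly have done so. The median lay between -0.21 and -0.15 across quantile normalization, centring of the arrays, the mean of probe sets and the fits without single WT arrays. Zfp760 (adjusted p = 0.0581) and Zfp647 (0.0762) were lost in the 4-array fit.

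Smaller groups of named genes also fell. Arhgap20, a RhoGAP, went from 8.95 and 8.81 to 6.24 and 6.35, a change of -2.58 (SE 0.14, adjusted p = 7.9e-05), which differed from that in KO by -1.82 (adjusted p = 0.00707) and from that in S5 by -1.70 (adjusted p = 0.00508). Slc14a1, a urea transporter, went from 6.64 and 6.86 to 4.42 and 4.34 in WT (change -2.37, adjusted p = 0.000428) and rose by 1.18 in S5 MEFs. Adamts1, a matrix protease, went from 12.98 and 12.97 to 11.92 and 12.03. In these 3 genes untreated and treated arrays were well apart. Efnb2, an ephrin ligand, fell by 0.63, and 5 of 43 semaphorin, ephrin and netrin genes fell (11.6 percent) with 2 rises, falls that numbered 2, 3, 4 and 2 without untreated array 1, untreated array 2, treated array 1 or treated array 2 and 1 in the 4-array fit. Of 25 circadian and glucocorticoid response genes 2 rose, Errfi1 and Mt2, and 2 fell (8 percent each). The fallers Dbp and Ciart, output genes of the circadian clock, fell by 0.96 and 1.10, and lost their calls in the 4-array fit (adjusted p = 0.0788 and 0.0772).

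Several lists held no gene that passed the threshold. Among them were 33 DNA replication and mitosis genes, 20 smooth muscle contractile genes, 17 fibroblast markers, 18 prostaglandin and leukotriene synthesis genes, 86 respiratory chain subunits and 37 kinesins. The medians of these 6 lists lay between -0.06 and 0.06. Over all genes 3.06 percent rose and 2.94 percent fell, so no call among about 20 genes is close to the share of all genes. That holds less for the longer lists, of 33, 37 and 86 genes. The prostaglandin list had 4 falls without untreated array 1 and 1 rise without untreated array 2. Of 28 ribosome biogenesis genes 2 rose (7.14 percent) with a median of 0.30, and the medians in KO and S5 MEFs were 0.26 and 0.28. The rises numbered 0, 1, 3 and 0 without untreated array 1, untreated array 2, treated array 1 or treated array 2 and 0 in the fit of the 4 WT arrays, and the WT median lay between 0.19 and 0.37 in the fits without 1 WT array. The 25 macrophage and monocyte genes of the longer list had 2 rises, Cd14 and Fcgr2b, and a median of 0.56. Both calls were lost in the fit of the 4 WT arrays (adjusted p = 0.169 and 0.193) and in some fits without 1 WT array. Without untreated array 2, which left the array with the lower macrophage mean as the only untreated one, they had 13 rises and no fall, and without untreated array 1 they had 1 rise and 4 falls.

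The 94 WT-only genes that rose at least 2-fold started low. Both untreated arrays lay below 4 in 55 of them, 1 did in 15 and none in 24, so that most folds are lower bounds. Their median level was 2.78 and 2.84 on the untreated and 6.95 and 6.90 on the treated arrays, and between 2.22 and 2.30 on KO and S5 arrays. Untreated array 2 lay more than 1 above untreated array 1 in 25 of the 94, and the reverse held in 1. With untreated array 2 left out the class held 158 rises, with untreated array 1 left out 97, and with 1 treated array left out 82 and 83. Marco, a scavenger receptor of macrophages, showed the even pattern, at 1.54 and 1.52 untreated and 8.48 and 8.29 treated. Nlrp3, the inflammasome sensor, showed the uneven one, at 2.42 and 4.18 untreated and 8.58 and 8.11 treated (adjusted p = 0.0015, and 0.0894 in the fit of the 4 WT arrays). The macrophage marker means of 7.87 and 9.55 untreated and 9.55 and 9.53 treated lie beside this class, and their part in it was not tested.

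The 43 WT-only genes that fell at least 2-fold had a median level of 5.98 and 5.90 untreated and 3.83 and 3.72 treated, and 22 of them ended below 4 on both treated arrays. For those 22 a fold taken against 4 can be under 2. Prr15, a proline-rich protein gene, stood at 4.74 and 4.99 untreated and 2.20 and 2.19 treated, at least 1.82-fold lower (adjusted p = 1.64e-06). Wscd2 went from 6.62 and 6.37 to 4.45 and 4.26, a 4.41-fold fall (adjusted p = 2.44e-05), and Ccdc158 from 5.83 and 5.76 to 3.30 and 2.87. These untreated pairs were close together. Hhex, a homeobox factor, was not, at 4.55 and 6.82 untreated and 2.44 and 2.81 treated (adjusted p = 0.0319), and its call was lost in some fits without 1 WT array, as were those of Klhl6 and Foxa1. The class numbered 89, 55, 37 and 36 without untreated array 1, untreated array 2, treated array 1 or treated array 2. It numbered 7 in the fit of the 4 WT arrays, where Prr15 had an adjusted p of 0.0284.

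Genes read elsewhere had clear levels before treatment. Of the 194 that rose at least 2-fold, 167 were at 4 or more on both untreated arrays. Their median level went from 7.69 and 7.98 to 9.83 on both treated arrays in WT, from 6.68 and 6.66 to 7.35 and 7.4 in KO, and from 6.51 and 6.41 to 7.75 and 7.52 in S5 MEFs. The median changes were 1.69, 0.32 and 0.57, and 145 of the 194 had a change of the same sign in KO and 158 in S5. The 126 that fell had medians of -1.35, -0.28 and -0.34. Without treated array 2 the rises numbered 123 and the falls 78.

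The bound of 4 divides close values in a few genes. Just inside, with their highest KO or S5 array at 4.04, 4.08 and 4.10, were Bcl11a, Rflna and Nkd1, and just outside, at a rounded 4.0, 3.98 and 3.91, were Cep126, Ptgir and Tnfrsf4 (named for their place at the bound). With a bound of 5 the genes at least 2-fold higher were 175 read elsewhere and 87 in WT only, and those lower 121 and 38. Other probe sets of the same genes gave a check of the reading. Among the 465 genes changed at least 2-fold, 98 had another probe set read in WT MEFs, and all 130 such probe sets moved with the same sign, 79 of them past the threshold.

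Compared with KO MEFs, in which 56 genes changed (0.308 percent, 41 or 0.225 percent higher and 15 or 0.0824 percent lower), the WT response was different at 231 genes (1.27 percent), 154 upward (0.846 percent) and 77 downward (0.423 percent). It differed from the S5 response at 532 genes (2.92 percent), 276 upward (1.52 percent) and 256 downward (1.41 percent). Among the 443 rises read elsewhere, 28 also rose in KO, which is 6.32 percent of the WT list and 71.8 percent of the 39 KO rises read elsewhere, and 85 (19.2 percent) differed from KO by the test of the difference. In S5 MEFs 1433 genes changed (7.88 percent), 660 higher (3.63 percent) and 773 lower (4.25 percent), and 152 rises were shared, 34.3 percent of the WT and 23.9 percent of the 637 S5 rises. Of the 474 falls read elsewhere, 5 were shared with KO and 151 with S5 (31.9 percent of the WT and 20.2 percent of the 749 S5 falls), and 44 (9.28 percent) differed from KO. The 3 responses come from separate arrays and share the variances of 1 fit. They shared 21 rises and 3 falls among genes read elsewhere. The shared rises included Cxcl10, Tnfaip3, Cxcl1, Bcl3, Relb, Cxcl5, Ccl2, Nfkbia and Ptpn1, and the falls were Mthfd2, a mitochondrial folate enzyme, Eldr and Tspyl4. Mthfd2, Eldr and Tspyl4 were chosen after their values were seen. The WT call of Mthfd2 was lost in each of the 4 fits without 1 WT array, in the fit of the 4 WT arrays (adjusted p = 0.0987), and with centred arrays, averaged probe sets or a filter on low values. Among genes read elsewhere 18 of the 443 WT rises fell in S5 and 15 of the 474 WT falls rose in S5. Of all 11383 genes read elsewhere 749 fell and 637 rose in S5, so these opposite changes do not exceed those shares.

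**Figure D3:**
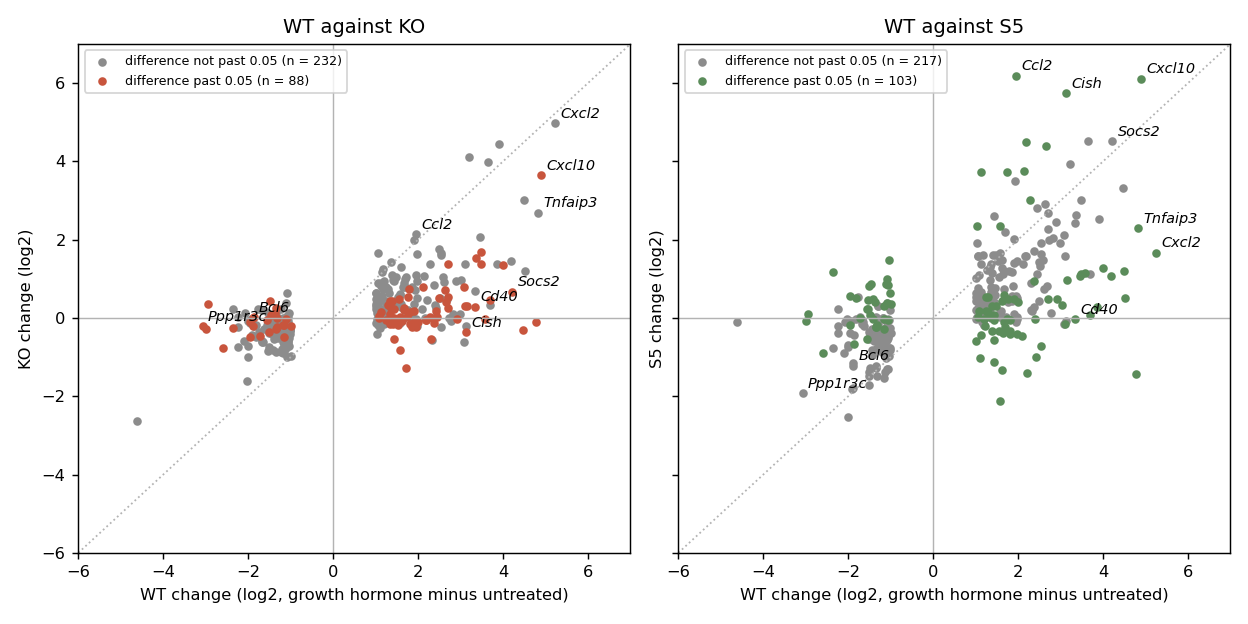
Log2 change in WT MEFs (horizontal axis) against that in KO MEFs (left) and S5 MEFs (right) for 320 genes read elsewhere and changed at least 2-fold in WT. Coloured points differ from the other response at adjusted p below 0.05, 63 of the 194 rises and 25 of the 126 falls for KO, and 70 and 33 for S5.

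Promoter letters were counted in RefSeq windows from 250 bases before to 50 after a gene's start (GRCm38.p6), on both strands, with no test. Windows were at hand for 14368 of the 18194 genes (18009 windows), 147 of the 194 rises read elsewhere (200 windows), 74 of the 94 WT-only rises (88 windows) and 138 of the 171 falls (185 windows). The NF-kB consensus was in 5.13 percent of all windows, 21.5 percent of those of rises read elsewhere, 17 percent of WT-only rises and 4.32 percent of falls. The STAT consensus TTCNNNGAA was in 7.2, 14.5, 10.2 and 7.57 percent of the same sets. The interferon response core (TTTC, any 2 bases, TTTC) was in 3.04, 7, 11.4 and 3.24 percent, the AP-1 letters TGANTCA in 6.35, 10, 9.09 and 1.62 percent and the CRE palindrome TGACGTCA in 2.5, 4, 0 and 1.62 percent. A window can count for several motifs, and matches of different motifs may share bases. A match is a description of letters and not a measured site.

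**Figure D4:**
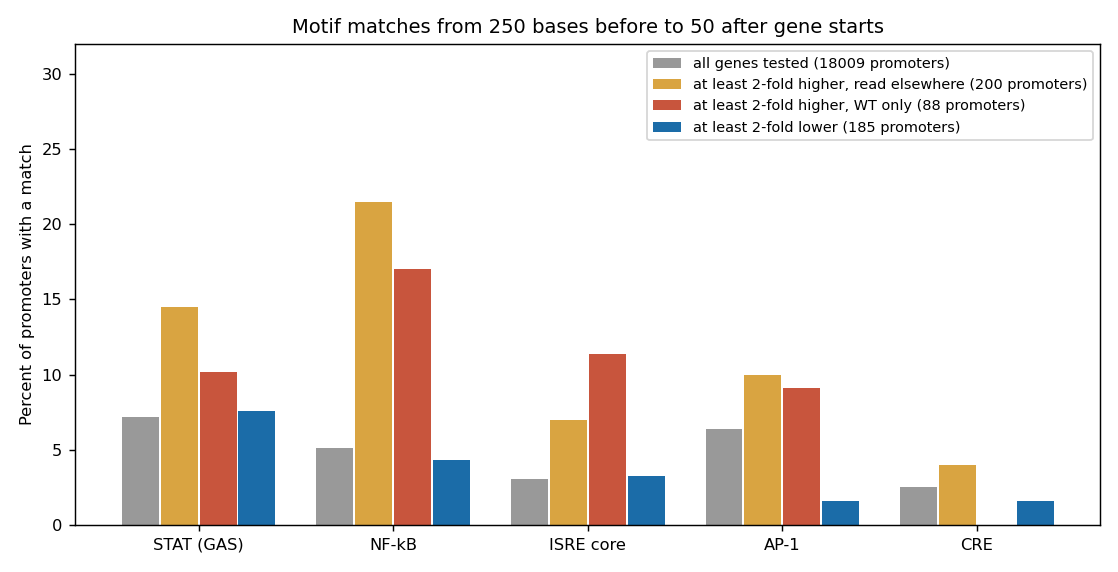
Percent of promoter windows that hold each of 5 motifs (vertical axis), for all genes tested, genes at least 2-fold higher and read elsewhere, genes at least 2-fold higher and read in WT only, and genes at least 2-fold lower. The NF-kB bars stand at 5.13, 21.5, 17 and 4.32 percent.

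Promoters of 5 risers are shown as examples of the NF-kB letters, which are in capitals, since NF-kB genes and chemokines made up the lists with the largest shares of rises. Cxcl10 (chr5:92348943-92349088, minus strand) rose in all 3 genotypes and holds 2 matches. Ccl20 (chr1:83116646-83116735, plus strand) and Il6 (chr5:30013030-30013113, plus strand) were read in WT only. Rel (chr11:23771011-23771101, minus strand) and Tnip1 (chr11:54962947-54963038, minus strand) encode a subunit and a brake of NF-kB and hold overlapping matches.
Cxcl10: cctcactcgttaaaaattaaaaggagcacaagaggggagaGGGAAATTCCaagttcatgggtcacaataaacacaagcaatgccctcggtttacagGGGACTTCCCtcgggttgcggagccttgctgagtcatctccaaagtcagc
Ccl20: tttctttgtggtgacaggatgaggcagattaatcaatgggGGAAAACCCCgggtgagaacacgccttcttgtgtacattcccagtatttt
Il6: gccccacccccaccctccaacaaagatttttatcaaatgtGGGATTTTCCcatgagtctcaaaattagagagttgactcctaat
Rel: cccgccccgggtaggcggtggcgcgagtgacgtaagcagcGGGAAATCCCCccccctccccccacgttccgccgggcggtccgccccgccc
Tnip1: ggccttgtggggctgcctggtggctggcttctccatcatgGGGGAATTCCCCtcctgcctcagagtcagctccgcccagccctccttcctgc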

How the data were processed

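The values are log2 expression values deposited by the authors for 45101 probe sets on 12 arrays; no label states the scale, which was read from the range of 0.99 to 15.95. GCOS and RMA are named in the submitters' processing notes, without settings. Values are compressed below 4, where the means of 54.3 percent of probe sets lie, so a group below 4 on both arrays was set to 4 and its fold is given as "at least". The tests and the counts of genes changed at least 2-fold use the log2 changes before this step. A gene in these counts can therefore have a stated fold under 2. Left out of the gene tests were 64 control probe sets, 932 that match several genes and 9160 that match none. The other 34945 covered 18194 genes, of which 18032 were in a RefSeq gene table of GRCm38.p6.

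A limma 3.58.1 model (R 4.3.3) was fitted with 1 mean per group, with 6 residual and 1.2 prior degrees of freedom, and two-sided p-values were adjusted over all genes by the Benjamini-Hochberg method at 0.05. The script was tested on simulated data. With 2 arrays per group the number of arrays limits the precision, and p-values measure the spread between these arrays. That spread is pooled over all 6 groups. For WT-only genes it includes KO and S5 arrays below 4, where values are compressed. Their SE and p can therefore understate the spread between WT arrays.

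The text may name the 20 largest rises and falls, the 15 largest rises and 10 largest falls of each class, called members of the lists and 8 growth hormone genes. The members and the gene lists were chosen with earlier results of these data known. Alternatives covered the prior, array weights, scaling, filtering, probe set choice, the read bound, the arrays in the fit and the replicate number as a block. A fit without the S5 arrays was added after the data were seen.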

Additional observations from a re-analysis of the deposited data

Results flagged for a closer look

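The response to growth hormone differed between WT and KO MEFs at 231 genes and between WT and S5 MEFs at 532 genes, by limma's test of the difference between the responses. Socs2 (WT minus KO 3.55), Cish (3.51) and Bcl6 (-1.88) were among the 231, and both WT arrays of each group lay apart from the other WT group in all 3. Signal also appeared in probe sets that no comparison by gene used. Of the 932 probe sets listed with several genes 28 changed in WT MEFs (3 percent), 21 higher and 7 lower, and of the 9160 listed with no gene 119 changed (1.3 percent), 69 higher and 50 lower.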

How the results depend on the processing

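The direction of all 356 named genes that passed the threshold was kept under every alternative but 1, since Il7 had a change of 0.31 with the mean of its probe sets. Most alternatives could hardly have turned a direction, so this is no added support. In all 1092 changed genes both treated arrays lay on the same side of both untreated ones. Several fits also leave the WT difference itself unchanged. In the fit of only the 4 WT arrays 252 of them lost their call, and 193 lost it without 1 of the 4 WT arrays. The fit of the 4 WT arrays has fewer samples and takes its spread from WT arrays alone. It called 266 changed genes, 156 higher and 110 lower, with 120 higher and 52 lower at least 2-fold. Of these, 33 and 7 were read in WT only and 86 and 44 elsewhere. Without the S5 arrays 620 genes changed, 336 higher and 284 lower, WT-only falls numbered 25, and 116 differed between WT and KO. With the mean of probe sets 110 fell at least 2-fold, 83 read elsewhere and 26 in WT only, and with every probe set on its own 309 rises were read elsewhere. With array weights 125 genes differed from KO and 825 from S5. The cause of these shifts was not tested.

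Leaving out 1 array at a time gave 547 to 1143 changed genes, 320 to 582 higher, 227 to 561 lower, 216 to 310 at least 2-fold higher and 116 to 201 lower. WT-only genes ran from 82 to 158 higher and 33 to 89 lower, genes read elsewhere from 123 to 192 and 78 to 127, and differences from KO and S5 from 150 to 355 and 363 to 580. The lowest count of changed genes came without treated WT array 2. Of the 557 rises 227 kept their call without each WT array in turn, and of the 535 falls 131 did.

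With arrays centred on their median, 57.2 percent of changed genes were higher, against 51 percent as deposited. Same-numbered arrays without and with the hormone had deviations that correlated at -0.05 in WT, -0.42 in KO and 0.13 in S5 MEFs, so the numbers were not taken to pair the samples. Between genotypes the correlations ran from -0.12 to 0.27, and with a replicate block 881 genes changed. With 2 arrays per group and most probe sets below 4, changes of dim genes are the least certain.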
